A study of Mus musculus with 2 samples.

Results

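Timp1, Timp2, Timp3, Tnc, Fn1, Thbs1 and Sparc encode metalloproteinase inhibitors and proteins of the extracellular matrix. These 7 genes were chosen by name, are 7 of the 19394 genes in the count matrix, and were measured in 5135 single cells. Progenitor cells of the Pax2 lineage were grown from kidney glomeruli of healthy C57Bl/6 mice, aged 9 weeks and carrying Pax2.rtTA;TetO.Cre; R26.mT/mG, so that Cre recombinase, inducible and under Pax2 promoter control, switches cells of that lineage to GFP. After 5 days of outgrowth GFP-positive cells were sorted, replated, starved for 16 h and then kept for 48 h in DMSO vehicle or in 0.2 µM panobinostat, a drug that inhibits histone deacetylases. The study asked how panobinostat acts on these cells. Both groups carry all 3 alleles, and 2 mice were used, per the labels, with no mark of the mouse on any cell and 1 library for each treatment. There is therefore no replicate, no p-value was computed, and the treatment and the library cannot be told apart. Every interval below is a 95% interval for counting error only.

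Tissue inhibitors of metalloproteinases (TIMPs) are secreted proteins that bind the catalytic site of matrix metalloproteinases (MMPs) and so slow the breakdown of matrix. Fibronectin, the product of Fn1, is a fibrillar scaffold that cells assemble through integrins, whereas tenascin-C (Tnc), thrombospondin 1 (Thbs1) and SPARC are matricellular proteins, which sit in the matrix and alter how cells attach and respond rather than bear load. In the glomerulus the balance of matrix deposition and turnover shifts in scarring, and parietal epithelial cells, among which Pax2-lineage progenitors are found, are a source of matrix.

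The vehicle library held 2854 cells with a median of 27924 unique molecular identifiers (UMIs, each a counted mRNA molecule) per cell, and the panobinostat library 2281 cells with a median of 42394. Counts were summed per library and scaled to a total of 1000000 UMIs (CPM). A gene was called higher or lower where the libraries differed by at least 2-fold, the interval of the ratio excluded equality and the level reached 10 CPM in at least 1 library. Of 8872 genes past that level, 874 were called higher with panobinostat and 973 lower, with a median log2 ratio of -0.07. TMM scaling moved that median to -0.19, and DESeq2 size factors moved it to -0.20 and the calls to 731 higher and 1249 lower. All 9 parietal and progenitor markers were past the level and summed to 9693 CPM in vehicle and 5616 CPM in panobinostat cells. Of these, 3 were called lower (33.3%, against 11.0% of all genes): Krt8 (4587 to 1710 CPM), Vcam1 (14.7 to 5.04 CPM) and Aldh1a2 (73.9 to 25.2 CPM). Among those not called, Pax2 was at 40.4 and 24.9 CPM and Pax8 at 120.2 and 119.9 CPM. Markers of the fibroblast, 6 with a row, summed to 1.10 CPM in vehicle cells and 6.29 CPM in panobinostat cells, with 0 of them past 10 CPM. The 8 endothelial markers summed to 24.5 and 90.1 CPM, with Flt1 (2.74 to 15.5 CPM) and Egfl7 (11.5 to 67.3 CPM) called higher. Below the level for a call, Emcn (6.68 to 0.0864 CPM), Cdh5 (0.815 to 0.0384 CPM) and Pecam1 (0.749 to 0.442 CPM) had lower values with panobinostat. Kdr (0.793 to 2.57 CPM) and Plvap (1.18 to 4.10 CPM) had higher values. The 6 leukocyte markers with a row summed to 5.33 and 68.4 CPM, nearly all of it Cd68 (4.11 to 65.5 CPM, called higher), with Ptprc at 0.606 and 1.98 CPM. Whether these markers have a part in the results below was not tested.

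Panobinostat cells held more Timp3 and Timp1 mRNA and far less Tnc mRNA than vehicle cells. Of the 7 genes, 2 were called higher, where 9.85% of all genes tested were, and 1 was called lower, where 11.0% of all genes were. The other 4 differed by less than 2-fold: Fn1, Sparc and Timp2 had lower values with panobinostat and Thbs1 a higher value. The median log2 ratio of the 7 was -0.47. With a threshold of 3-fold, 1 of the 7 was called higher (5.05% of all genes) and 1 lower (4.43%), and with 1.5-fold, 2 were called higher (19.3%) and 2 lower (23.2%).

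The 250 bases before the transcription start, where they do not overlap the annotated gene, are shown for the 3 genes called over all cells, so that the sequence upstream of the 2 called higher can be read against that of the gene called lower. They come from RefSeq on GRCm38.p6 and are written 5′ to 3′ on the strand of the gene, with the promoter motifs that were searched in capitals. The motifs were the GC box GGGCGG, the AP-1 site TGANTCA and the TATA box TATAAA, each on both strands and with no overlap between them in these windows. Timp1 is at chrX:20869916-20870165 on the plus strand, Timp3 at chr10:86300162-86300371 on the plus strand and Tnc at chr4:64047016-64047265 on the minus strand. The Timp3 window is cut to the 210 bases before the annotated start.
Timp1: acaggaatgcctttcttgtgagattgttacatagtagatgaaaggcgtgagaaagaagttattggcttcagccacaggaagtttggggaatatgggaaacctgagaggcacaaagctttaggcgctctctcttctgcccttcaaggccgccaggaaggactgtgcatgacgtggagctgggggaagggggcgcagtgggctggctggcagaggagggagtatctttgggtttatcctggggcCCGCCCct
Timp3: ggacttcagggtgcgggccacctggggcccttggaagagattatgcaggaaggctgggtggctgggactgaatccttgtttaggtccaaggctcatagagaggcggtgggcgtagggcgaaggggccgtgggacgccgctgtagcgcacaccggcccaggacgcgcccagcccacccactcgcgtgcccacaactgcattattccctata
Tnc: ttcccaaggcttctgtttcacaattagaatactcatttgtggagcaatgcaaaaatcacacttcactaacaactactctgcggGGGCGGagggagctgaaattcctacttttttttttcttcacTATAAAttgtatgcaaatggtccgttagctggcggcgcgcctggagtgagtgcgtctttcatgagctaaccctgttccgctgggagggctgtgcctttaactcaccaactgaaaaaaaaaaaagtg
The Timp1 window held 1 GC box on the opposite strand and 54.4% G and C. The Tnc window held 1 GC box and 1 TATA box and 44.8% G and C. The Timp3 bases held none of the 3 motifs and 63.8% G and C, with 1 GC box in the uncut window. Over 32851 mouse windows of 250 bases the median was 52.4% G and C, and 32.7% held a GC box, 12.4% a TATA box and 6.75% an AP-1 site. The matches describe the sequence only, and no measurement of chromatin was made here.

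Timp3 encodes the TIMP that binds to the matrix and, besides MMPs, inhibits ADAM and ADAMTS proteases. It counted 7754 UMIs in the vehicle library (85.4 CPM) and 54070 in the panobinostat library (519 CPM). The level was 6.07-fold higher with panobinostat (log2 ratio 2.60, interval 2.57 to 2.64). Timp1 encodes a secreted inhibitor of most MMPs that is induced in many injured tissues. It counted 7919 UMIs (87.3 CPM) in vehicle cells and 21947 (211 CPM) in panobinostat cells, 2.41-fold higher (log2 ratio 1.27, interval 1.23 to 1.31). Timp2 encodes an inhibitor that also takes part, with MMP14, in the activation of pro-MMP2. It counted 16459 UMIs (181 CPM) and 13626 UMIs (131 CPM), for a log2 ratio of -0.47 (interval -0.50 to -0.44), which did not reach 2-fold. The 3 inhibitor genes thus had values in different directions, and the libraries differed most for Timp3.

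**Figure D1:**
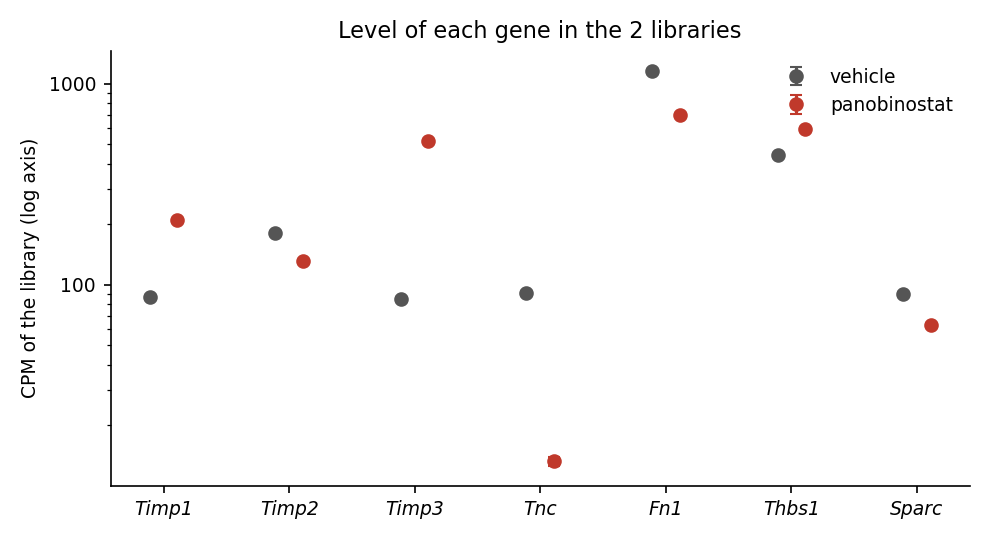
Level of each gene in the vehicle (grey) and panobinostat (red) libraries, in CPM on a log axis, with Poisson intervals that are mostly smaller than the points. Timp3 and Timp1 sit higher and Tnc lower in the panobinostat library, at 13.3 CPM against 91.3 CPM, and heights are to be compared within a gene only.

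Tnc encodes tenascin-C, a large hexameric protein made at sites of injury and tissue remodelling. It counted 8289 UMIs in the vehicle library (91.3 CPM) and 1382 in the panobinostat library (13.3 CPM). The level was 6.89-fold lower with panobinostat (log2 ratio -2.78, interval -2.87 to -2.70). Fn1 counted 104934 UMIs (1156 CPM) and 73026 UMIs (701 CPM), for a log2 ratio of -0.72 (interval -0.74 to -0.71). Its product fibronectin binds tenascin-C as well as integrins and collagen. Sparc, whose product binds collagen, counted 8154 UMIs (89.8 CPM) and 6554 UMIs (62.9 CPM), for a log2 ratio of -0.51 (interval -0.56 to -0.47). Thbs1 encodes a trimeric protein that can activate latent TGF-beta and binds the receptor CD47. It counted 40100 UMIs (442 CPM) and 61822 UMIs (593 CPM), for a log2 ratio of 0.43 (interval 0.41 to 0.44). Of the 4 matrix genes, Tnc alone passed the 2-fold rule over all cells.

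CPM is a share of each library's UMIs, and the panobinostat cells carried more UMIs each. As UMIs per cell, Timp2 stood at 5.77 in vehicle and 5.97 in panobinostat cells, and Sparc at 2.86 and 2.87. The lower CPM of these 2 genes thus went with nearly equal counts per cell. Fn1 stood at 36.8 and 32.0 UMIs per cell, and Thbs1 at 14.1 and 27.1. Timp3 stood at 2.72 and 23.7, Timp1 at 2.77 and 9.62, and Tnc at 2.9 and 0.606, so the 3 called genes differed in the same direction per cell. Whether the larger totals reflect more RNA per cell or deeper sequencing cannot be told apart from these counts.

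The genes lie on 6 chromosomes of GRCm38 in the GENCODE M21 annotation. Timp1 (chromosome X, 20870166 to 20874735) lies within the synapsin gene Syn1 on the opposite strand, with no exon in common. Timp3 (chromosome 10, 86300372 to 86349506) lies within Syn3 on the opposite strand, and their exons overlap. Syn1 counted 22 UMIs in vehicle cells and 2693 in panobinostat cells (0.242 and 25.8 CPM, log2 ratio 6.74), and Syn3 counted 165 and 582 (1.82 and 5.59 CPM). Syn1 was called higher and Syn3 did not reach 10 CPM. Fn1 (chromosome 1, 71585520 to 71653200) overlaps the antisense gene Apol7d, which counted 117 and 404 UMIs. Timp2 (chromosome 11, 118301069 to 118355740) holds Cep295nl, with 75 and 40 UMIs and no shared exon. Whether counting used the strand is not stated in the sources used here, so reads of Timp3 and Syn3, or of Fn1 and Apol7d, may not be fully separated. Syn3 and Apol7d counted at most 582 UMIs, against 7754 or more for Timp3 and Fn1. These counts cannot show how many reads were mixed, which was not tested. Tnc (chromosome 4, 63959785 to 64047015) and Thbs1 (chromosome 2, 118111876 to 118127133) share exon bases with 8030451A03Rik and Gm29233 on the opposite strand. These partners have no row of that name in the count matrix, so reads of Tnc and Thbs1 may likewise not be fully separated from theirs. Sparc is at chromosome 11, 55394500 to 55423183.

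To compare cells at equal depth, each was thinned at random to 18663 UMIs, which kept 2401 vehicle cells and 2221 panobinostat cells and left out 453 and 60. Timp3 had a UMI in 48.1% (interval 46.1 to 50.2%) of the vehicle cells after thinning and in 85.5% (84.0 to 87.0%) of those with panobinostat. Before thinning these shares were 54.6% and 92.9%. The median cell held 0 Timp3 UMIs with vehicle and 4 with panobinostat, and 10 or more UMIs were found in 2.75% and 29.7% of cells. Timp3 was thus detected in more cells and at higher counts within them. The counts were spread widely: the tenth of cells with most UMIs held 55.3% of Timp3 UMIs in vehicle and 44.0% in panobinostat cells, and the highest panobinostat cell held 111.

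Timp1 was found in 66.3% (64.4 to 68.2%) of thinned vehicle cells and 85.6% (84.1 to 87.1%) of thinned panobinostat cells, or 75.2% and 93.8% before thinning. Its median was 1 UMI per thinned cell with vehicle and 3 with panobinostat. Tnc was found in 51.8% (49.7 to 53.8%) and 15.9% (14.4 to 17.5%), or 57.3% and 28.1% before thinning. At 5 or more UMIs, Tnc was found in 11.5% of vehicle cells and 0.315% of panobinostat cells. The few Tnc UMIs left with panobinostat were concentrated, with 74.6% of them in the tenth of cells with most, against 49.0% with vehicle. Taking Timp3 and Tnc in the same thinned cells, 30.6% of vehicle cells had a UMI of both, 17.5% of Timp3 alone and 21.2% of Tnc alone. With panobinostat the shares were 15.1% for both, 70.5% for Timp3 alone and 0.810% for Tnc alone.

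**Figure D2:**
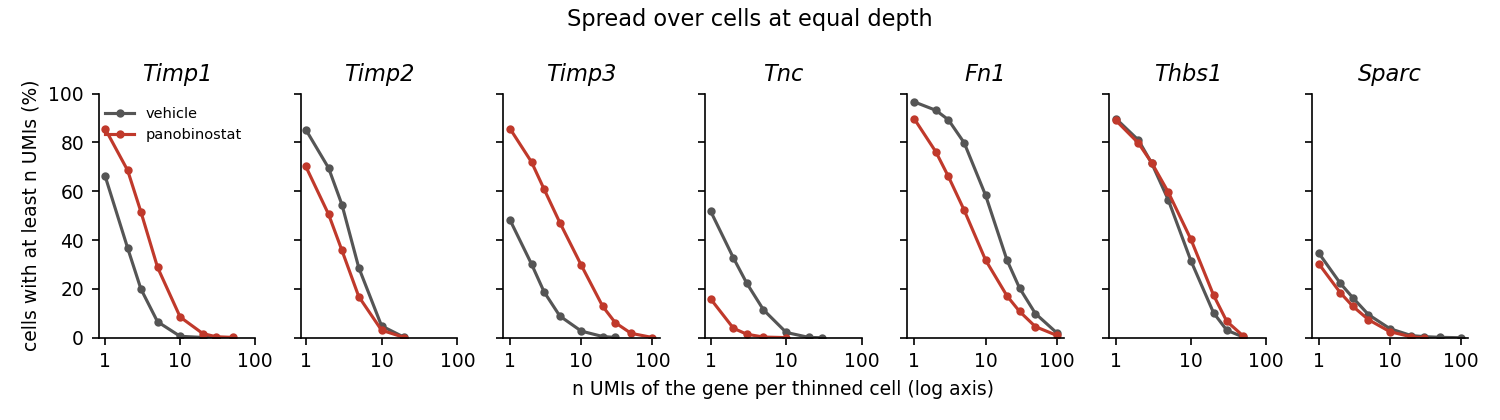
Share of cells (%) with at least n UMIs of each gene after thinning to equal depth, against n on a log axis, for vehicle (grey, 2401 cells) and panobinostat (red, 2221 cells). The curves part widely for Timp3, Timp1 and Tnc, while those for Thbs1 and Sparc run close together.

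Timp2 was found in 85.3% (83.8 to 86.7%) of the thinned cells with vehicle and 70.2% (68.2 to 72.1%) with panobinostat, or 88.8% and 83.6% before thinning. Fn1 was found in 96.5% (95.7 to 97.2%) and 89.6% (88.2 to 90.8%), or 97.0% and 94.5% before thinning, and its median was 12 and 5 UMIs per cell. For these 2 genes a smaller share of panobinostat cells had a UMI at equal depth. Thbs1 was found in 89.8% (88.5 to 90.9%) and 89.0% (87.6 to 90.3%), with medians of 5 and 7 UMIs, or 89.7% and 92.9% before thinning. Sparc was found in 34.7% (32.8 to 36.7%) and 30.3% (28.4 to 32.3%), or 40.0% and 42.3% before thinning. Sparc UMIs sat in few cells of both libraries: the tenth of cells with most UMIs held 71.4% of its UMIs with vehicle and 71.1% with panobinostat. The sort holds no cell type known to lack these genes, so a background share from free RNA could not be set beside these values.

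Cells were also called by cell cycle phase from the expression of S and G2/M genes. In the vehicle library 1016 cells (35.6%) were called G1, 768 (26.9%) S and 1070 (37.5%) G2/M, while 2277 panobinostat cells (99.8%) were called G1. Called from thinned cells, G1 took 34.9% and 99.7%. Among the genes used for the calls, 36 of 42 S genes and 48 of 53 G2/M genes past 10 CPM were called lower with panobinostat. The all-cell comparison therefore set a mixture of called phases against cells called G1. Within the vehicle library, the levels of Tnc, Fn1, Sparc, Thbs1 and Timp3 differed between phases, whereas the counting intervals of Timp1 overlapped.

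In vehicle cells the matrix genes had their highest level in G1. Fn1 stood at 1739 CPM in G1, 958 in S and 788 in G2/M cells. Tnc stood at 136, 77.4 and 62.2 CPM in the same order. Sparc stood at 129.9, 89.2 and 56.7 CPM, and Thbs1 at 598, 432 and 317 CPM. The inhibitors were less uniform. Timp3 stood at 110.5, 81.5 and 66.9 CPM and Timp2 at 197, 177 and 171 CPM, while Timp1 stood at 85.6, 92.0 and 85.8 CPM. The counting intervals of the 3 phases did not overlap for Tnc, Fn1, Sparc, Thbs1 and Timp3, those of Timp2 overlapped between S and G2/M, and those of Timp1 overlapped between all 3. The median cell total was 26160 UMIs in G1, 24939 in S and 31624 in G2/M. Counted per cell, Fn1 had the same order, with 53.3, 28 and 27.4 UMIs, whereas Timp2 was at 6.03, 5.16 and 5.96 UMIs.

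**Figure D3:**
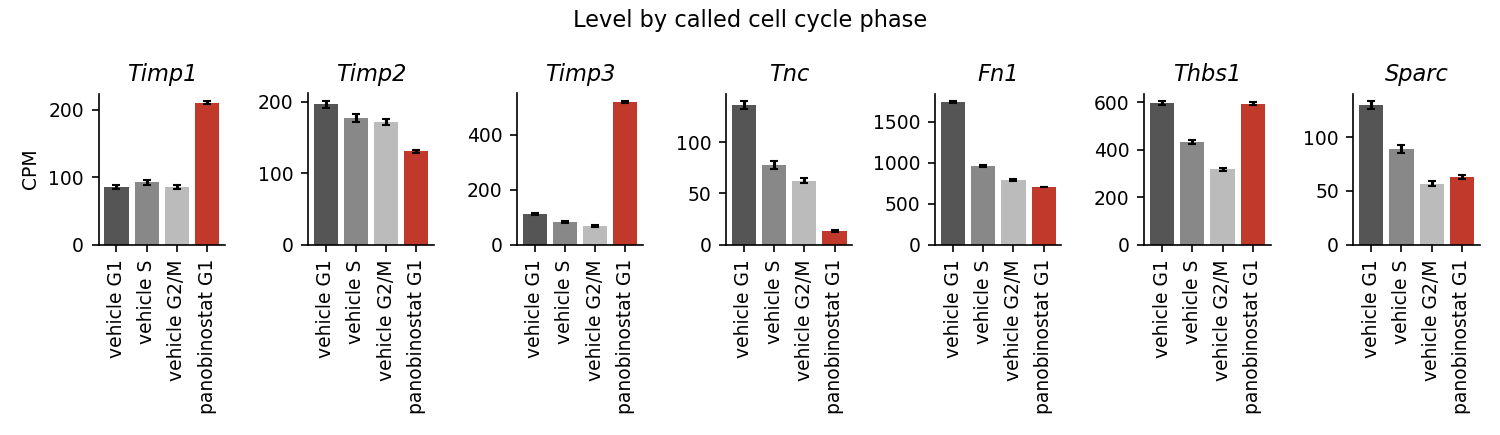
Level of each gene (CPM, bars from 0, with Poisson intervals) in vehicle cells called G1, S and G2/M (greys) and panobinostat cells called G1 (red). Vehicle bars step down from G1 to G2/M for every gene but Timp1, and the panobinostat bar of Thbs1 (594 CPM) stands level with vehicle G1 (598 CPM).

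Over cells called G1 alone, 2 of the 7 genes were called higher, where 8.97% of all 8660 genes tested were, and 3 were called lower, where 7.11% were. Timp3 was at 110.5 CPM in vehicle and 519 CPM in panobinostat cells (log2 ratio 2.23, interval 2.18 to 2.28), and Timp1 at 85.6 and 211 CPM (1.30, interval 1.24 to 1.36). Tnc was at 136 and 13.2 CPM, with a log2 ratio of -3.37 (interval -3.46 to -3.28). These calls were the same 3 as over all cells. Fn1, at 1739 and 702 CPM, was now also called lower, with a log2 ratio of -1.31 (interval -1.33 to -1.29). Sparc, at 129.9 and 62.9 CPM, had a log2 ratio of -1.05 (interval -1.10 to -0.99), just past 2-fold. Thbs1, at 598 and 594 CPM, had a log2 ratio of -0.01 (interval -0.03 to 0.01), so its higher value over all cells was not seen among G1 cells. Timp2 remained below 2-fold at -0.59 (interval -0.63 to -0.54).

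The counts of 2 higher and 3 lower were the same when G1 was called and summed in thinned cells, where 8.95% of all genes were called higher and 7.17% lower. They were also the same when vehicle cells were scored without the panobinostat cells, which called 1170 of them G1 (8.97% of all genes higher and 7.17% lower). Both settings were chosen after the data were seen. Phase calls rest on expression, so whether the cells called G1 in the libraries are in the same state was not tested.

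**Figure D4:**
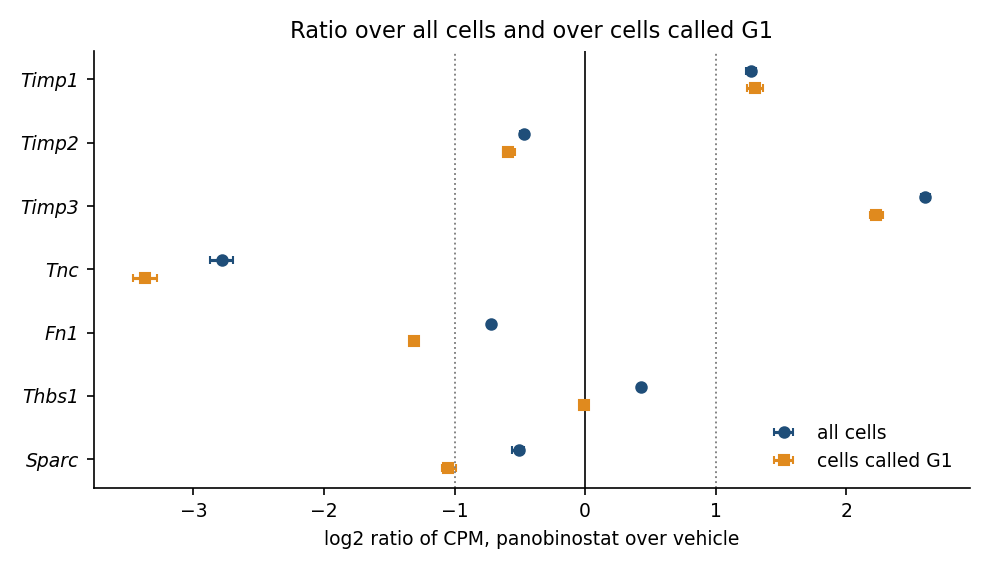
Log2 ratio of CPM, panobinostat over vehicle, with exact intervals, over all cells (blue circles) and over cells called G1 (orange squares), with dotted lines at 2-fold. Fn1 and Sparc cross the lower line among G1 cells and Thbs1 moves from 0.43 to -0.01.

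The cells were clustered without the 7 genes, giving 9 clusters that are numbered here and described by their leading genes. Clusters 1 (Cldn16, Stmn2), 3 (Pmp22, Kitl, Clu) and 8 (Sbsn, Vgf, Vim) were panobinostat cells, with 1149, 708 and 415 cells. Clusters 2 and 5 (Top2a), 4 (Nupr1, Tgm2, Acta2), 6 (Aqp1, Folr1, Havcr1, Col4a1) and 7 (Spink8, Plac8) were vehicle cells, with 731, 498, 667, 441 and 431 cells. Cluster 9 (Acta1, Myl9, Cnn1) held 86 vehicle cells of low depth, with a median of 14486 UMIs, and 9 panobinostat cells. Since each large cluster held cells of a single library, cluster and treatment cannot be told apart, and levels are compared within a library.

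Among vehicle clusters, cluster 4, of which 84.4% of cells were called G1, had the highest Fn1 (2015 CPM), Thbs1 (695 CPM), Tnc (153 CPM) and Timp3 (137 CPM). Cluster 6, of which 17.2% of cells were called G1, had the highest Sparc (261 CPM), Timp2 (293 CPM) and Timp1 (124 CPM). The 2 clusters thus shared out the highest vehicle levels of all 7 genes at this resolution. With a finer split into 12 clusters, the highest Tnc (173 CPM) and Timp3 (197 CPM) of vehicle cells moved to the cluster with the highest Sparc (451 CPM). Cluster 5, in which 0% of cells were called G1, had the lowest Timp3 (19.6 CPM) and Sparc (17.9 CPM). Cluster 9 had the lowest Tnc (7.90 CPM), Fn1 (195 CPM), Thbs1 (56.7 CPM), Timp1 (70.4 CPM) and Timp2 (74.7 CPM). The counting intervals of clusters 5 and 9 overlapped for Timp1, Timp2, Timp3 and Sparc, but not for Tnc, Fn1 and Thbs1. In cluster 7, 77.0% of cells were called G1, and in cluster 2, 0.821%. Timp3 (53.7 and 80.9 CPM) and Timp2 (112 and 182 CPM) were lower in cluster 7 than in cluster 2, while the remaining members were higher. Without cluster 9, left out because of its low depth, highest over lowest cluster ranged 14.6-fold for Sparc, 6.99-fold for Timp3, 4.90-fold for Tnc, 4.01-fold for Fn1, 3.67-fold for Timp2, 3.34-fold for Thbs1 and 1.58-fold for Timp1. With cluster 9 the ranges of Tnc, Thbs1 and Fn1 were 19.4-fold, 12.3-fold and 10.3-fold. Without cluster 9 the all-cell log2 ratios were -2.80 for Tnc and -0.74 for Fn1.

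Among panobinostat clusters, cluster 3 had the lowest level of all 7 genes at this resolution. In the split into 12 clusters the lowest panobinostat Thbs1 (192 CPM) lay in another cluster than the lowest level of the other 6. In the split into 9 clusters, Timp3 stood at 170.1 CPM in cluster 3, against 646 CPM in cluster 1 and 741 CPM in cluster 8. Sparc stood at 18.3 CPM in cluster 3, 25 CPM in cluster 1 and 251 CPM in cluster 8. The Sparc level of cluster 8 was thus close to that of vehicle cluster 6 at this resolution. In the split into 12 clusters, the highest vehicle levels of Sparc were 451 and 160.4 CPM, against 251 CPM in the highest panobinostat cluster. Col4a1, a basement membrane collagen gene, was among the 10 leading genes of clusters 6 and 8. Tnc was at 2.27 CPM in cluster 3, 14.7 CPM in cluster 8 and 19.1 CPM in cluster 1, each below the 31.3 CPM or more of the vehicle clusters other than cluster 9. Timp3 in its lowest panobinostat cluster was above its highest vehicle cluster, but in the split into 12 clusters a vehicle cluster reached 197 CPM against 176 CPM in the lowest panobinostat cluster.

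**Figure D5:**
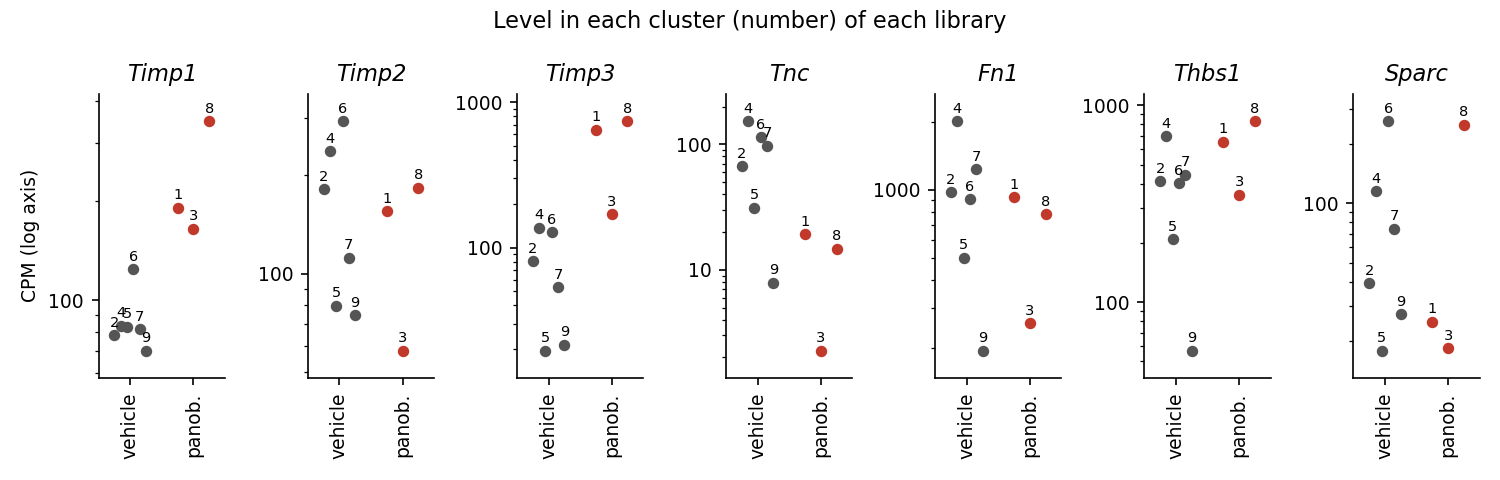
Level of each gene (CPM, log axis) in each cluster of at least 50 cells of a library, labelled by cluster number, for vehicle (grey) and panobinostat (red, panob.) cells. Panobinostat clusters lie above all vehicle clusters for Timp1 and Timp3, and cluster 3 is the lowest panobinostat cluster in every panel.

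Within a library, the genes varied together only in part. Pearson's r was taken over thinned cells on the log scale, so points share a library and 1 depth, and a weak r in such sparse counts is no finding. Tnc and Fn1 had the highest r of any pair with vehicle, 0.55 over 2401 cells, and 0.27 over 2221 panobinostat cells, where few cells held Tnc. Timp3 and Thbs1 had 0.34 with vehicle and 0.48, the highest of any pair, with panobinostat. Fn1 and Thbs1 had 0.33 and 0.37, and Timp3 and Tnc 0.31 and 0.24. Timp1 had an r of at most 0.16 with vehicle to any of the other 6 genes, and with panobinostat both Timp1 (at most 0.19) and Sparc (at most 0.20) had weak values throughout.

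The genes most like each member over cells were also listed, among 3202 genes of at least 50 CPM with vehicle and 3077 with panobinostat. The 7 members were then left out of the ranking. Among the genes ranked, Cald1 was the most like Timp3 (0.40 and 0.56), Thbs1 (0.39 and 0.55) and Tnc (0.49 and 0.26) in both libraries. Cald1 encodes the actin-binding protein caldesmon. The member Fn1 had a higher r with Tnc in both libraries (0.55 and 0.27). For Sparc the most alike were Col4a1 (0.47 and 0.52) and Col4a2 (0.46 and 0.49), the paired chains of type IV collagen. Fn1 was most like the integrin chain gene Itgb1 (0.56) with vehicle and Col4a3 (0.42) with panobinostat. Timp2 was most like Fst (0.46) with vehicle and Lhfp (0.35) with panobinostat. Timp1 was most like Vim (0.23) with vehicle and S100a6 (0.33) with panobinostat. After Cald1, the ranked gene most like Tnc was the actin gene Acta2 (0.46) with vehicle. The smooth muscle and mesangial list held Acta2, Tagln and Cnn1 past 10 CPM and all 3 were called lower with panobinostat, as Tnc was. That list's sum was 1466 CPM in vehicle and 95.6 CPM in panobinostat cells, while its other 5 members with a row were below 10 CPM in both. Of these, Notch3 (2.13 and 8.96 CPM), Des (0.165 and 2.13 CPM), Itga8 (0.132 and 0.624 CPM) and Pdgfrb (0.0992 and 0.365 CPM) had higher values with panobinostat, and Myh11 was at 0.970 and 1.03 CPM. Acta2 was among the 10 leading genes of clusters 4 and 9, which had the highest (153 CPM) and the lowest (7.90 CPM) Tnc of the vehicle clusters. Whether the fall of the Acta2 group has a part in that of Tnc was not tested.

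The proteases that TIMPs inhibit were read from fixed lists, described by counts. Of 17 MMP genes with a row, 3 were past 10 CPM, of which 0 were called higher and 2 lower, with a median log2 ratio of -1.44, where 11.0% of all genes were called lower. With TMM or DESeq2 scaling Mmp11 fell below that level, and the median of the remaining 2 was -2.46 or -2.47. Mmp9, a gelatinase, went from 34.8 CPM with vehicle to 3.65 CPM with panobinostat (log2 ratio -3.26), and Mmp14, a membrane-bound collagenase, from 47.7 to 17.6 CPM (-1.44). Mmp2, which Mmp14 activates, was at 1.54 and 4.37 CPM, below the level for a call. Both called MMP genes thus fell in the library in which Timp1 and Timp3 were higher. Of 18 ADAM and ADAMTS genes, 8 were past 10 CPM, with a median of 0.49. Of these, 2 were called higher (25%, against 9.85% of all genes) and 2 lower (25%, against 11.0%). Adam12 fell from 69.6 to 10.6 CPM (-2.72) and Adamts5, an aggrecanase, from 135 to 49.4 CPM (-1.45). Adam15 rose from 24.3 to 59.0 CPM (1.28) and Adam9 from 22.9 to 51.5 CPM (1.17), the latter not called over G1 cells (0.95). The remaining inhibitors of the family were scarce, Timp4 at 0.0110 and 0.259 CPM and Reck, a membrane-anchored MMP inhibitor, at 0.342 and 1.24 CPM.

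Of 26 other matricellular genes with a row, 8 were past 10 CPM, 1 called higher and 1 lower, with a median log2 ratio of 0.40. Lgals3, encoding galectin 3, went from 396 to 896 CPM (1.18, and 0.88 with no call over G1 cells). Wisp1 went from 18.6 to 7.61 CPM (-1.29). The other 6 did not reach 2-fold, among them the osteopontin gene Spp1 at 1816 and 3331 CPM (0.88) and Ctgf at 989 and 1093 CPM (0.14). Thbs2, the closest relative of Thbs1, was at 0.0441 and 0.528 CPM. The shares called, 12.5% in each direction, were near those of all genes.

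Of 26 genes for receptors of matrix proteins, 16 were past 10 CPM, 2 called higher (12.5%, against 9.85% of all genes) and 1 lower (6.25%, against 11.0%), with a median of -0.05. Itga1, a collagen-binding integrin chain, went from 27.7 to 73.5 CPM (1.41). Sdc4, a syndecan that binds fibronectin with integrins, went from 308 to 629 CPM (1.03), with no call under TMM scaling (0.92), DESeq2 scaling (0.91) or G1 cells (0.89). Itgb6, whose product pairs with the alpha v chain to bind fibronectin and latent TGF-beta, went from 85.8 to 41.7 CPM (-1.04), with no call when centred on the median gene (-0.97). The fibronectin receptor chains Itgb1 (0.43) and Itgav (0.84) and the thrombospondin receptor Cd47 (0.19) had higher values that did not reach 2-fold. Itga5, the other chain of the main fibronectin receptor, was at 9.69 and 2.87 CPM, just under the level for a call, and was called lower over G1 cells (-2.42) and under TMM (-1.87) and DESeq2 scaling (-1.88).

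Of 16 genes of matrix assembly and crosslinking with a row, 14 were past 10 CPM, 0 called higher (against 9.85% of all genes) and 4 lower (28.6%, against 11.0%), with a median of -0.07, as over all genes. Lox, encoding lysyl oxidase, went from 33.1 to 7.27 CPM (-2.19), and Loxl4, of the same family, from 14.3 to 6.62 CPM (-1.11). Tgm2, encoding the transglutaminase that crosslinks fibronectin, went from 76.6 to 18.9 CPM (-2.02). Serpinh1, encoding the collagen chaperone HSP47, went from 289.8 to 119.7 CPM (-1.28). These 4 were called lower under TMM and DESeq2 scaling, when centred and over G1 cells as well. With Furin (-1.01), lower calls under DESeq2 scaling numbered 5 of 14, against 14.1% of all genes.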

How the data were processed

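Droplet libraries of 3′ gene expression were made per the labels' protocols, and Cell Ranger 3.0.1 and the build mm10 are named in the submitters' processing notes. The gene models behind the counts are not given in sources used here. Values in the deposited matrix are the authors' raw UMI counts, with no normalization. Deposited cells had at least 1798 genes, so a filter, not given in sources used here, had been applied. Cells were assigned to libraries by the CTRL or PANO mark of their barcodes, 0 of which were shared.

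Counts were summed per library. Ratios have exact conditional binomial (Clopper-Pearson) intervals, shares Clopper-Pearson intervals and levels exact Poisson intervals, which cover counting error only. A count of 3 equals 0.0331 CPM with vehicle and 0.0288 CPM with panobinostat. Cells were thinned without replacement. Phases were scored with scanpy 1.11.5 on both libraries together. For clusters, 2000 variable genes without the 7 members gave 30 components and a graph of 15 neighbours, split with leidenalg 0.10.2 at resolution 0.5. Doublets were not called: the 10% of cells with most UMIs were left out as an alternative. Scaling alternatives used edgeR 4.0.16 and DESeq2 1.42.0. The rule of size was tested on simulated counts with set fold changes and counting error only. That check holds no variation between libraries, cultures or cells. Scripts ran under R 4.3.3 and Python 3.11.15 with scipy 1.17.1 and numpy 2.4.6.

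The 7 members and the gene lists were chosen with earlier results of these data known, so they are no independent support. Named genes are the members, overlapping genes and up to 4 called genes per list with the largest ratio. Also named are the 3 non-member genes most like each member per library and the 5 leading genes of a cluster. Others, such as Mmp2, Reck, Timp4, Thbs2, Spp1, Ctgf, Itgb1, Itgav, Itga5, Cd47, Furin, Smad2 and Ltbp1 and the cell type markers, were named after their values were seen. Values of some genes of the lists are not reported here.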

Additional observations from a re-analysis of the deposited data

How the results depend on the processing

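Over 11 alternatives of scaling, choice of cells and summing, Timp1 (log2 ratio 1.15 to 1.44) and Timp3 (2.08 to 2.84) were called higher in all 11, Tnc (-3.37 to -2.72) lower in all 11 and Timp2 (-0.65 to -0.40) never. Fn1 and Sparc had lower values in all 11 and were called lower in 3, those of G1 cells: Fn1 at -1.31, -1.37 in thinned cells and -1.24 with vehicle scored alone, and Sparc at -1.05, -1.03 and -1.03. Thbs1 was above 0 in 8 and turned to -0.01, -0.09 and -0.01 in the same 3. Members called lower, 1 over all cells, numbered 3 in each of these and 2 at 1.5-fold, and members called higher, 2 over all cells, numbered 1 at 3-fold. The other floors (1 CPM, 50 CPM and none) changed neither count. Over G1 cells, list counts moved for ADAM and ADAMTS genes higher (1), matricellular genes higher (0), receptors higher (1) and lower (2), collagens lower (2) and, by less than the others, collagens higher (2, from 3). Of all genes, 8.97% were called higher and 7.11% lower over G1 cells. The cause of the moves in list counts was not tested. The thinned and separately scored G1 cells, the values and ranges without cluster 9 and the list counts over G1 cells were chosen after the data were seen.

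Of 14 shares of cells, 12 lay outside their thinned interval when cells were not thinned. At a finer cluster resolution of 1.0, 11 of 14 ranges over clusters stayed within 1.5 times, and 3 moved: Sparc with vehicle to 24.6-fold, Tnc with vehicle to 10.7-fold and Thbs1 with panobinostat to 4.33-fold. No paired analysis was possible because each treatment has 1 library. The intervals leave out variation between cultures, animals and libraries, which these data cannot give.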

Other observations

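Other systems that act on the same matrix were described by the same rule of size. Of 6 genes of the plasminogen system with a row, 5 were past 10 CPM, 2 called higher (40%, against 9.85% of all genes) and 0 lower (against 11.0%). Plat, encoding tissue plasminogen activator, went from 98.1 CPM with vehicle to 251 CPM with panobinostat (log2 ratio 1.35), and Serpine2, encoding the protease inhibitor nexin 1, from 16.6 to 63.5 CPM (1.93).

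Of 13 genes of fibrillar and associated collagens, 6 were past 10 CPM, 3 called higher (50%, against 9.85% of all genes) and 1 lower (16.7%, against 11.0%). Under TMM scaling 2 of 5 were called higher (8.33% of all genes) and 1 lower (13.9%). Under DESeq2 scaling the counts were the same, against 8.23% and 14.1% of all genes. Over G1 cells 2 of 6 were called higher (8.97% of all genes) and 2 lower (7.11%). The median was 0.54, but -0.43 under TMM and -0.44 under DESeq2 scaling, where Col5a3 dropped below the level for a call. Col8a1 went from 5.64 to 24.2 CPM (2.10), Col16a1 from 4.24 to 11.2 CPM (1.39, with no call over G1 cells at 0.99) and Col12a1 from 10.5 to 3.57 CPM (-1.55). Col5a3 counted 5 UMIs with vehicle and 1078 with panobinostat. Of 20 genes of TGF-beta signalling, which Thbs1 can feed, 16 were past 10 CPM, 0 called higher and 1 lower (6.25%, against 11.0% of all genes), with a median of -0.26. Lower calls numbered 2 of 15 under TMM scaling, with Smad2 (-1.07), where 13.9% of all genes were called lower. Under DESeq2 scaling they numbered 3 of 15, with Smad2 (-1.08) and Ltbp1 (-1.01), against 14.1% of all genes. The gene called in each was Ltbp2, of the family of latent TGF-beta binding proteins, which went from 11.1 to 1.08 CPM (-3.37). Tgfb1 itself was at 35.2 and 29.1 CPM (-0.28).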
